A study of Mus musculus with 16 samples.

Results

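Genes that are switched on in dividing cells were followed in tibialis anterior muscle of mice with and without the ubiquitin ligase UBR4 in their muscle fibers. The set was a list of 37 genes given by symbol and drawn up with earlier results of these data known, of which 15 act in S phase and 22 in mitosis. All 37 were found among the 47643 genes of the table. RNA was sequenced from 16 male C57BL6/J mice, 4 in each of 4 groups: wild type (WT) and UBR4 muscle-specific knockout (UBR4 mKO), each young (6 months) and old (24 months). The UBR4 mKO mice carried Ubr4 fl/fl with a tamoxifen-inducible ACTA1-Cre, which is active in skeletal muscle fibers, and the WT mice were Ubr4 fl/fl siblings without Cre that also received tamoxifen. Satellite cells, immune cells, fibroblasts and vessel cells therefore kept their Ubr4 in both genotypes, and their RNA is part of every sample because whole muscle was used. In such tissue a larger number of dividing cells and more RNA per dividing cell cannot be told apart.

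A cell prepares for division by loading the MCM helicase on its replication origins, passes into S phase under cyclin E, copies its DNA with newly made deoxynucleotides, and then builds a spindle under CDK1 with cyclin A or B and the Aurora and Polo kinases. Muscle fibers have left the cell cycle, so in resting muscle these genes are mostly transcribed in the few cells that still divide, such as activated satellite cells, immune cells and endothelial cells. Some of their products also have roles outside division, and a gene of the list can be expressed in a fiber without any replication.

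Many cell cycle genes share short promoter motifs: CCAAT boxes, E2F sites, and the cell cycle genes homology region (CHR), on which repressor and activator complexes assemble. Promoter sequences were taken from RefSeq on GRCm38.p6, from 250 bases before to 50 bases after each gene start, for the 31 of the 37 genes that had an entry (32 promoters, because Mcm7 had 2). Aurkb, Ccna2, Ccne2, Kif20a, Mcm4 and Tpx2 had none in the table. The CHR was searched as TTTGAA or TTCGAA, the CCAAT box as CCAAT, and the E2F site as TTTCCCGC, TTTGGCGC, TTTCGCGC or TTTGCCGC, on both strands. Of the 18 promoters of mitosis genes, 15 held a CHR match (83.3%), against 2 of the 14 promoters of S-phase genes (14.3%) and 19.2% of all 32851 promoters of the same length. The E2F letters were in 6 of the 14 S-phase promoters (42.9%), in 1 of the 18 mitosis promoters (5.56%) and in 2.26% of all promoters. CCAAT boxes were in 64.3% of the S-phase, 88.9% of the mitosis and 37.4% of all promoters. These shares describe letters in a window, with no test of binding.

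The 5 promoters printed here belong to the 3 genes that were higher in young UBR4 mKO muscle under both scalings used (Rrm2, Kif11, Birc5), to the gene with the largest age difference (Aurka) and to an S-phase gene with several E2F matches (Mcm6), with every motif match in capitals. Rrm2 has a single CCAAT box, Kif11 has a CCAAT box and a CHR on the reverse strand, Birc5 has no match to the letters searched, Aurka has 2 CCAAT boxes and a CHR, and Mcm6 has 2 CCAAT boxes on the reverse strand and 3 E2F matches, 2 of which overlap each other.
Rrm2 (chr12:24708004-24708303, plus strand): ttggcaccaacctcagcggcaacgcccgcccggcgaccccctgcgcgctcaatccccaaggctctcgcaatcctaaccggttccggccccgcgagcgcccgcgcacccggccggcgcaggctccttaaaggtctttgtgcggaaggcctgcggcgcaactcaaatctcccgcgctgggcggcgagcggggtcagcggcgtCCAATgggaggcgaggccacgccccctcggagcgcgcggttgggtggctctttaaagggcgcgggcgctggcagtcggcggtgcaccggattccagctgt
Kif11 (chr19:37376132-37376431, plus strand): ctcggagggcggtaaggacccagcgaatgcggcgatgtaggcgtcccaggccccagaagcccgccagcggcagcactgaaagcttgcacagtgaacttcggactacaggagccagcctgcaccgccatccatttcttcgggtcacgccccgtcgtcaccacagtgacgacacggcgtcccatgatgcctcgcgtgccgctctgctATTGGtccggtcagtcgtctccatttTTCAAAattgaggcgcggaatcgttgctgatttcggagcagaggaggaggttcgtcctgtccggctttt
Birc5 (chr11:117848987-117849286, plus strand): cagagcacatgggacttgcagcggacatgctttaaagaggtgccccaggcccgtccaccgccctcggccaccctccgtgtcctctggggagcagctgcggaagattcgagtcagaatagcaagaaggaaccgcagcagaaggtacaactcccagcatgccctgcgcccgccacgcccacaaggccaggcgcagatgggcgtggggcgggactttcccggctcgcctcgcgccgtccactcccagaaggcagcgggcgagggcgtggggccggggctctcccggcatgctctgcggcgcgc
Aurka (chr2:172370521-172370820, minus strand): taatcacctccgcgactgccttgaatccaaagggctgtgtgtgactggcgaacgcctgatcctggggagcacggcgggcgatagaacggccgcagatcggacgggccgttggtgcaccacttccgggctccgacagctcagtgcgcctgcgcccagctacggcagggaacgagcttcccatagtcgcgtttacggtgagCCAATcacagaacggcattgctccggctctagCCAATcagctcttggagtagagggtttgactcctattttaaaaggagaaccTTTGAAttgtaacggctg
Mcm6 (chr1:128359656-128359955, minus strand): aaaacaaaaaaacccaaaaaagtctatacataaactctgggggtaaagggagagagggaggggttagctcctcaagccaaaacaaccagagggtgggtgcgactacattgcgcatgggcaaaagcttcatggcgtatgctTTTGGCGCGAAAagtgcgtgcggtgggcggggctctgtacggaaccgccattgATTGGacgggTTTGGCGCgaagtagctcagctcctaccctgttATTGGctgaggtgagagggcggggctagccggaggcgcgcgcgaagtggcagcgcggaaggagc

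The values are TPM, in which a gene's reads are divided by its transcript length and each sample is scaled to the same total over all transcripts. Ubr4 itself was at 11.1, 15.7, 13.2 and 9.09 TPM in 6-month WT and at 4.98, 4.91, 5.51 and 6.54 TPM in 6-month UBR4 mKO muscle. At 24 months it was at 17.2, 17.0, 17.8 and 21.1 TPM in WT and at 10.1, 14.6, 4.28 and 7.63 TPM in UBR4 mKO muscle. The knockout mice were below the WT mice of their age without overlap, but 24-month UBR4 mKO replicates 1 and 2, at 10.1 and 14.6 TPM, were within the range of 6-month WT muscle. Mitochondrially encoded genes took 52.6 to 59.7% of the TPM in 6-month WT and 46.1 to 51.7% in the other groups, which moves the TPM of all other genes. Over the 14453 genes with a mean of at least 0.1 TPM, the median log2 difference between UBR4 mKO and WT was 0.34 at 6 months and 0.02 at 24 months. Between 24 and 6 months it was 0.26 in WT and -0.05 in UBR4 mKO. How much of these medians comes from the mitochondrial share was not tested. The counts and the values of called proliferation genes are therefore also given after each mouse was divided by its median ratio to the other mice over 14470 genes (rescaled values), which brings these medians to between 0.00 and 0.01.

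Most of the proliferation genes were near the lower end of what the table resolves. By their mean over the 16 mice, 13 of the 37 were at 1 TPM or more, 19 between 0.1 and 1 TPM, and 5 (Bub1, Ttk, Cenpf, Hmmr and Ccnb1) below 0.1 TPM. Only 7 of the 592 single values were 0. The 32 genes at or above a mean of 0.1 TPM were tested across all 14453 genes with limma on log2(TPM + 0.1), and a Benjamini-Hochberg adjusted p under 0.05 was taken as a call. Cdk1, Birc5 and Top2a averaged below 0.1 TPM in both WT groups and passed this filter through the UBR4 mKO groups. So did Nusap1 (0.101 TPM in young and 0.0966 TPM in old WT) and Aurkb (0.104 and 0.0339 TPM), which were below 0.1 TPM over the WT mice together. The pseudocount makes a fold change of a gene near 0.1 TPM smaller than the ratio of its means. Read depth is not recoverable from TPM, so no counting error can be attached to these low values.

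Of the summed TPM of the 37 genes, 81.1% came from the S-phase genes and 59.7% from Rrm1, Pcna and Aurka alone. Rrm1, the large subunit of ribonucleotide reductase, averaged 15.6 TPM. Pcna, the sliding clamp of the replicative polymerases, averaged 12.8 TPM, and Aurka, the kinase of centrosome maturation, averaged 3.62 TPM. Next came the helicase subunits Mcm2 at 3.10 TPM and Mcm7 at 2.50 TPM. The genes most used to mark dividing cells were much lower, with Mki67 at 0.222 TPM, Top2a at 0.126 TPM and Ccnb1 at 0.0891 TPM. A sum over all 37 genes therefore mainly follows a few well expressed S-phase genes, and the sums are given by role.

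The summed TPM of all 37 genes was 45.0 ± 4.53 (SD, n = 4) in 6-month WT, 53.4 ± 3.80 in 6-month UBR4 mKO, 57.9 ± 1.99 in 24-month WT and 58.8 ± 7.28 in 24-month UBR4 mKO muscle. In single mice it was 43.5, 49.0, 48.3 and 39.3 in young WT against 58.0, 48.7, 53.0 and 53.9 in young UBR4 mKO. The groups overlapped at both ages between genotypes, and the old WT mice were all above the young WT mice. After rescaling the young groups changed order, to 52.6 ± 3.61 in WT and 48.9 ± 3.93 in UBR4 mKO, and the old groups were at 56.0 ± 2.02 and 56.0 ± 6.77. The sums carry no test.

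The 15 S-phase genes summed to 38.3 ± 3.99 TPM in young WT and 43.0 ± 2.75 TPM in young UBR4 mKO, and after rescaling to 44.7 ± 2.18 and 39.3 ± 1.50 TPM, with all rescaled UBR4 mKO mice below all WT mice. The 22 mitosis genes summed to 6.67 ± 1.19 and 10.4 ± 2.80 TPM, and to 7.84 ± 1.57 and 9.55 ± 2.83 TPM after rescaling. The mitosis groups overlapped under both scalings. In single mice the rescaled mitosis sum was 7.35, 6.07, 9.84 and 8.08 TPM in WT and 13.1, 8.39, 10.2 and 6.48 TPM in UBR4 mKO. The difference of the group means at 6 months therefore turned with the scaling for the S-phase sum and not for the mitosis sum. Within the mitosis genes it turned for the kinases and checkpoint genes, whose ratio of means was 1.20, and 0.94 after rescaling.

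Aurka, Ube2c and Tpx2, the 3 mitosis genes with the highest means, were called with age and not with genotype, as given further on. Without them the other 19 mitosis genes summed to 2.11, 2.80, 4.61 and 2.27 TPM in young WT and to 10.1, 5.63, 7.36 and 4.48 TPM in young UBR4 mKO muscle. Only the lowest UBR4 mKO mouse fell below the highest WT mouse. At 24 months the same sum was 2.09, 2.14, 1.98 and 2.58 TPM in WT and 3.49, 8.79, 2.96 and 2.70 TPM in UBR4 mKO, with every UBR4 mKO mouse above every WT mouse. The means, 2.34 times higher at 6 months and 2.04 times higher at 24 months, were 1.85 and 2.02 times higher after rescaling. Leaving out the UBR4 mKO mouse with the highest value gave 5.82 ± 1.45 TPM at 6 months and 3.05 ± 0.403 TPM at 24 months (SD, n = 3), against WT means of 2.95 and 2.20 TPM. The choice of these 19 genes was made after the values were seen, and the sums are a description.

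**Figure D1:**
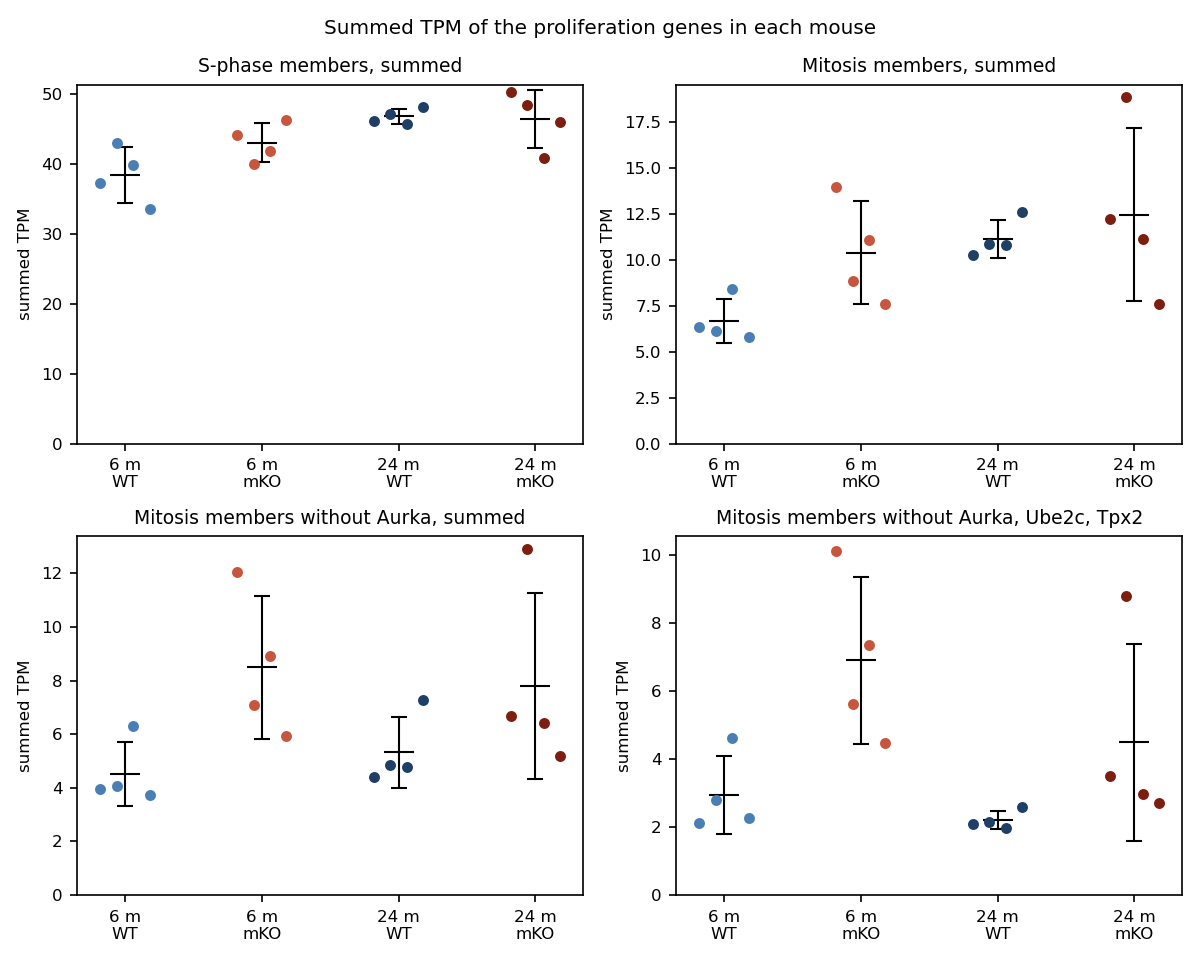
Summed TPM (vertical axes, linear from 0) of the S-phase genes, the mitosis genes, and the mitosis genes without Aurka and without Aurka, Ube2c and Tpx2, for each mouse (points) of the 4 groups, with the mean and SD (bars, n = 4). Without the 3 genes, the 24-month UBR4 mKO mice lie between 2.70 and 8.79 TPM and the 24-month WT mice between 1.98 and 2.58 TPM.

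In 6-month-old muscle, 10 of the 32 tested proliferation genes were called higher in UBR4 mKO than in WT and none lower. This is 31.3% of them, and 37.7% of all tested genes were called higher in the same comparison (1.04% lower, 38.8% in either direction), so the number of calls does not set the proliferation genes apart. Their median log2 difference was 0.56, against 0.34 over all genes. After rescaling the medians were 0.36 and 0.01, and 3 genes were called higher (6.8% of all genes were) and 2 lower (7.71%), 14.5% of all genes in either direction. Some of the 32 genes passed the filter through UBR4 mKO, and the list was drawn up with earlier results known. The medians are therefore no support for a difference of the list. By role, the calls before rescaling were 2 of 8 tested origin licensing genes, none of the 2 G1/S cyclins, 2 of 5 genes of DNA synthesis, 1 of 5 tested mitotic cyclin, CDK1 and anaphase-promoting complex genes, 2 of 5 tested mitotic kinases and checkpoint genes, and 3 of 7 tested genes of chromosomes, kinetochore and spindle.

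Rrm2, the small subunit of ribonucleotide reductase that is made in S phase, had the largest log2 difference of the list on the log2(TPM + 0.1) scale. By the ratio of means, 3.57 for Rrm2, the low genes Cdk1 (4.66), Birc5 (4.18) and Kif11 (3.71) were ahead of it. The gene lies at chr12:24708241-24714146 (GRCm38). It was at 0.434, 0.373, 0.437 and 0.474 TPM in young WT and at 2.39, 1.17, 1.48 and 1.09 TPM in young UBR4 mKO muscle. The lowest UBR4 mKO value was more than double the highest WT value. The log2 difference was 1.57 ± 0.23 (SE; limma, adjusted p = 0.000226), and 1.26 with an adjusted p of 0.00315 after rescaling. The same call was made in all 10 alternative analyses and in all 16 that left out a mouse, with adjusted p from 4.02e-05 to 0.0479. A pseudogene, Gm48455, matches 19.1% of the Rrm2 transcript at 95.5% identity and was not in the table.

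Kif11 (chr19:37376403-37421859), the kinesin that pushes spindle poles apart, was at 0.198, 0.146, 0.223 and 0.124 TPM in young WT and at 0.849, 0.405, 0.670 and 0.640 TPM in young UBR4 mKO muscle. The groups did not overlap. The log2 difference was 1.42 ± 0.29 (limma, adjusted p = 0.00238) and 1.17 after rescaling (adjusted p = 0.0131). Birc5 (chr11:117849251-117855743), or survivin, a subunit of the chromosomal passenger complex, was at 0.0122, 0.0690, 0.151 and 0.129 TPM in WT and at 0.570, 0.383, 0.353 and 0.201 TPM in UBR4 mKO. These groups were also separate, with a log2 difference of 1.34 ± 0.32 (limma, adjusted p = 0.00565) and 1.13 after rescaling (adjusted p = 0.0358).

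Cenpa, the histone H3 variant that marks centromeres, was at 0.563, 0.862, 0.874 and 0.636 TPM in WT and at 1.74, 1.11, 2.01 and 1.33 TPM in UBR4 mKO. All UBR4 mKO mice were above all WT mice, with a log2 difference of 0.97 ± 0.21 (limma, adjusted p = 0.00346). After rescaling it was 0.65, and the adjusted p was 0.0530. Cdk1, the kinase that drives entry into mitosis, was at 0.0482, 0.0954, 0.135 and 0.0231 TPM in WT and at 0.731, 0.297, 0.308 and 0.0710 TPM in UBR4 mKO. The fourth UBR4 mKO mouse fell among the WT mice, and the log2 difference was 1.19 ± 0.44 (limma, adjusted p = 0.0429; after rescaling 1.04, adjusted p = 0.132). With no filter on low values Cdk1 was not called. Plk1, the Polo kinase of spindle assembly, was at 0.0189, 0.128, 0.191 and 0.0906 TPM in WT and at 0.453, 0.296, 0.273 and 0.245 TPM in UBR4 mKO. Its groups were separate, with a log2 difference of 1.06 ± 0.38 (limma, adjusted p = 0.0358; after rescaling 0.86, adjusted p = 0.149). Nusap1, a microtubule-bundling protein of the spindle, was at 0.102, 0.116, 0.126 and 0.0589 TPM in WT and at 0.336, 0.183, 0.352 and 0.169 TPM in UBR4 mKO, again without overlap (log2 difference 0.81 ± 0.29, limma adjusted p = 0.0352; after rescaling 0.62, adjusted p = 0.142). The pseudogene Plk-ps1 matches 82.4% of the Plk1 transcript at 93.4% identity, so Plk1 values are less certain.

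Among the origin licensing genes, Cdt1, which loads the MCM helicase, was at 0.190, 0.450, 0.213 and 0.127 TPM in WT and at 0.743, 0.510, 0.485 and 0.447 TPM in UBR4 mKO. The lowest UBR4 mKO value was just below the highest WT value, and the log2 difference was 0.96 ± 0.28 (limma, adjusted p = 0.0154; after rescaling 0.71, adjusted p = 0.0787). Mcm6, a subunit of that helicase, was at 0.765, 1.01, 1.07 and 0.803 TPM in WT and at 1.45, 1.21, 1.20 and 1.33 TPM in UBR4 mKO. The groups were separate, with a log2 difference of 0.47 ± 0.15 (limma, adjusted p = 0.0246), which was 0.15 after rescaling (adjusted p = 0.472). The other helicase subunits showed log2 differences from -0.20 (Mcm2) to 0.32 (Mcm4), and none was called before rescaling.

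The S-phase genes with the highest levels differed less, and in both directions. Pcna was at 11.0, 12.7, 12.6 and 9.94 TPM in WT and at 13.9, 12.9, 13.9 and 15.2 TPM in UBR4 mKO. The groups were separate and the log2 difference was 0.28 ± 0.10 (limma, adjusted p = 0.0448), below the median of all genes, and after rescaling it was -0.07 (adjusted p = 0.585). Rrm1, the partner subunit of Rrm2, was at 14.6, 15.7, 13.2 and 12.2 TPM in WT and at 12.1, 12.7, 13.1 and 14.5 TPM in UBR4 mKO. The values overlapped (log2 difference -0.08 ± 0.10, limma adjusted p = 0.436), and after rescaling Rrm1 was called lower at -0.43 (adjusted p = 0.00137). Mcm2 was at 2.67, 3.36, 2.71 and 2.46 TPM in WT and at 2.48, 2.43, 2.23 and 2.52 TPM in UBR4 mKO, with a log2 difference of -0.20 (limma, adjusted p = 0.237) that became -0.54 after rescaling (adjusted p = 0.00417). The pseudogene Pcna-ps2 matches 781 bases of Pcna at 99.2% identity and was listed at 0 in all mice except 24-month WT, where it reached 2.19 TPM.

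The 3 genes with the largest differences that were not called were Mki67, a coat protein of mitotic chromosomes, Ccnb2, a partner of CDK1, and Top2a, which untangles chromosomes. Mki67 was at 0.0494, 0.0839, 0.356 and 0.154 TPM in WT and at 0.682, 0.346, 0.444 and 0.121 TPM in UBR4 mKO. The overlap came from 1 high WT mouse and 1 low UBR4 mKO mouse, and the log2 difference was 0.93 ± 0.45 (limma, adjusted p = 0.102). Ccnb2 and Top2a differed by 0.81 ± 0.39 (adjusted p = 0.106) and 0.77 ± 0.39 (adjusted p = 0.114). After rescaling Mki67, Ccnb2 and Top2a differed by 0.70, 0.55 and 0.61 (adjusted p = 0.328, 0.386 and 0.318). Without UBR4 mKO replicate 1 the difference of Top2a was 0.48.

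**Figure D2:**
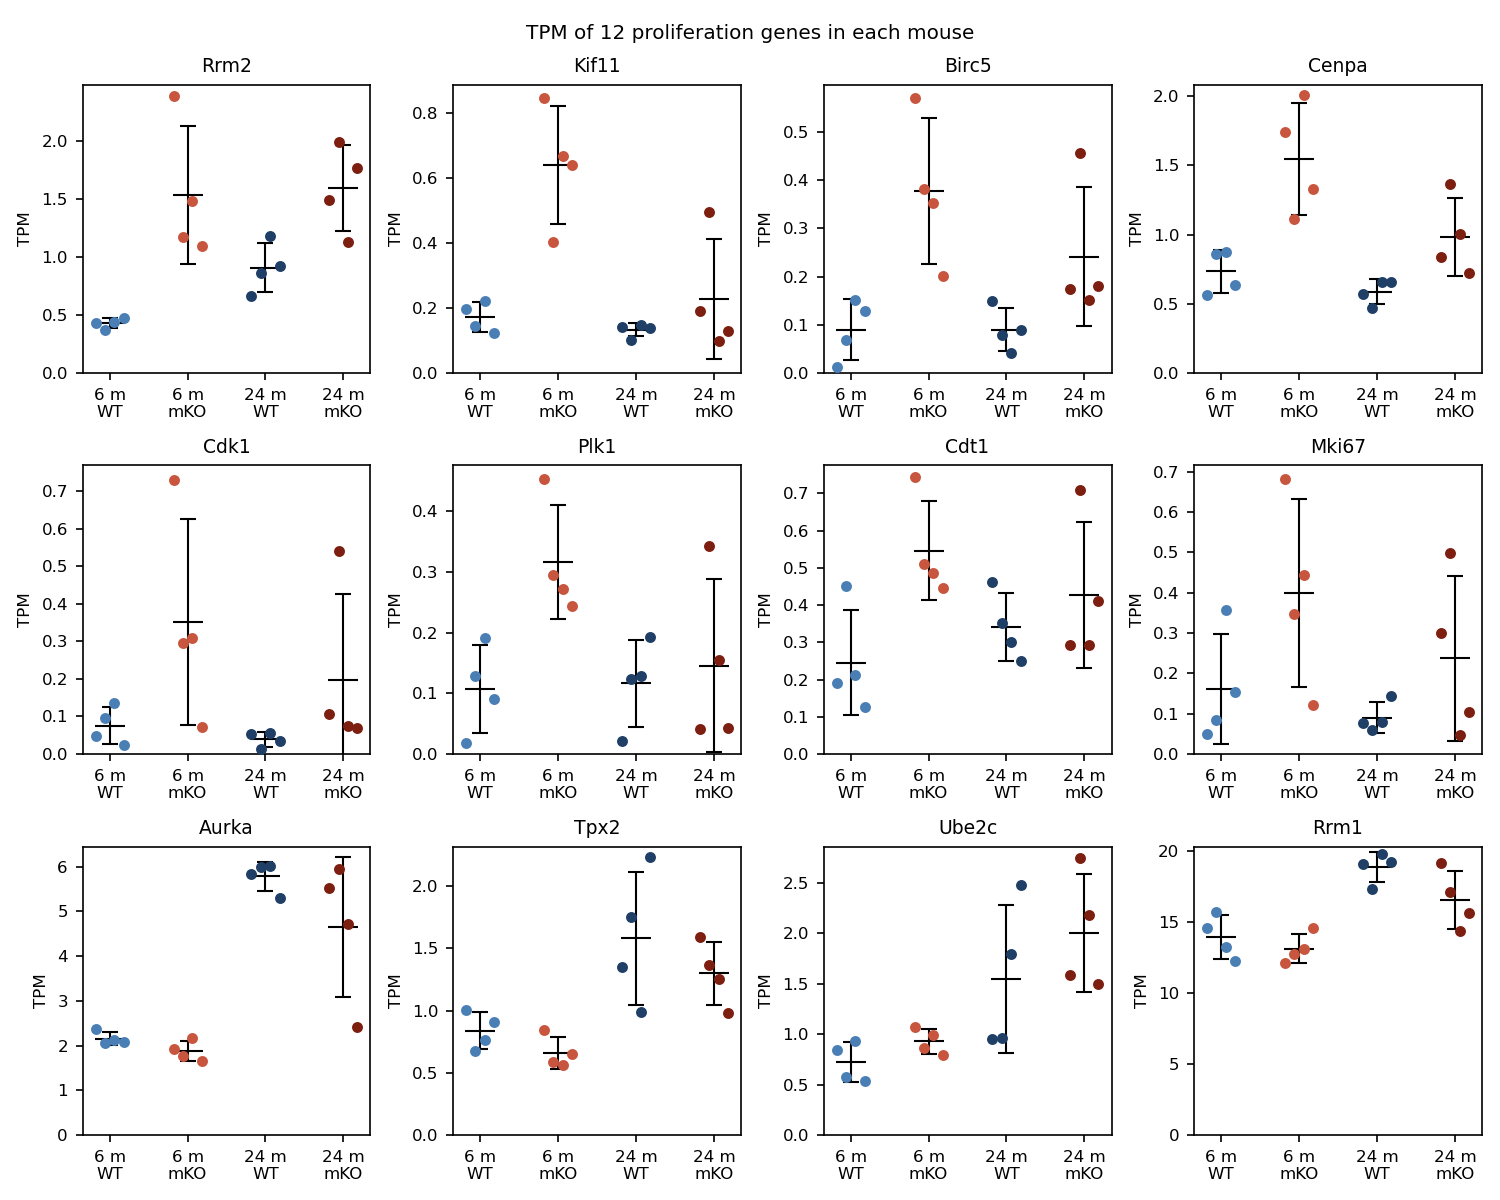
TPM (vertical axes, linear from 0, a scale of its own for each gene) of 12 proliferation genes in each mouse (points) of the 4 groups, with the mean and SD (bars, n = 4; bars that would pass below 0 end there). Rrm2, Kif11 and Birc5 separate the 6-month genotypes, whereas Aurka lies between 1.66 and 2.38 TPM in all 6-month mice and between 5.31 and 6.01 TPM in 24-month WT mice.

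Of the calls at 6 months, 5 were also made without UBR4 mKO replicate 1 (Cdt1, Rrm2, Birc5, Cenpa and Kif11), 6 without UBR4 mKO replicate 3, 5 without WT replicate 1, and 4 without WT replicate 4 (Rrm2, Birc5, Cenpa and Kif11). UBR4 mKO replicate 1 had the highest value of all 16 mice for 20 of the 37 genes and of its group for 26 of them. With 4 against 4 mice, the two-sided exact permutation test of 1 gene has 70 arrangements and cannot give a p below 0.0286, which is the value it gave for the genes whose groups did not overlap. There were 10 such genes of the 32, all higher in UBR4 mKO (31.3%, with 35.8% of all tested genes higher, 0.962% lower and 36.7% in either direction).

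At 24 months none of the 32 tested genes was called by limma between UBR4 mKO and WT, in a comparison in which 0.595% of all genes were called (0.36% higher, 0.235% lower). After rescaling none was called either, with 0.816% of all genes called (0.367% higher, 0.45% lower). At an unadjusted p under 0.05 there were 5 genes, Rrm2, Ccnb2, Birc5, Bub1b and Cenpa, all higher in UBR4 mKO, beside 10.5% of all tested genes at that threshold (7.09% higher, 3.44% lower). A limma fit that weights each mouse by its variability called 1, Rrm2, and the Kruskal-Wallis test with Dunn comparisons called none. The median log2 difference of the 32 genes was 0.21, and 0.19 after rescaling, beside 0.02 and 0.00 over all genes. The differences of 25 of the 32 were above 0, as were those of 54.5% of all genes. Some of the 32 passed the filter through UBR4 mKO, and the list was drawn up with earlier results known. These medians and counts are therefore no support for a difference of the list.

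In 4 of the 32 genes every old UBR4 mKO mouse was above every old WT mouse (12.5%, with 4.08% of all tested genes higher, 1.75% lower and 5.83% in either direction): Ccnb2, Cdk1, Birc5 and Cenpa. Cdk1 and Birc5 were tested only through their UBR4 mKO levels, as given above, so the share is no support for a difference of the list. Ccnb2 was at 0.149, 0.147, 0.0920 and 0.0789 TPM in WT and at 0.208, 1.01, 0.277 and 0.462 TPM in UBR4 mKO. The second UBR4 mKO mouse was the highest of all 16, and the log2 difference was 1.28 ± 0.39 (limma, adjusted p = 0.190). Cdk1 was at 0.0533, 0.0131, 0.0548 and 0.0353 TPM in WT and at 0.106, 0.541, 0.0744 and 0.0689 TPM in UBR4 mKO, so that 3 of the UBR4 mKO mice lay just above the WT range and 1 far above it. The log2 difference was 0.86 ± 0.44 (limma, adjusted p = 0.537), and 0.40 without that mouse, replicate 2. Birc5 was at 0.148, 0.0798, 0.0417 and 0.0893 TPM in WT and at 0.175, 0.457, 0.151 and 0.181 TPM in UBR4 mKO, with the same mouse apart (0.79 ± 0.32, limma adjusted p = 0.366).

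Cenpa was at 0.568, 0.470, 0.660 and 0.655 TPM in old WT and at 0.840, 1.36, 1.01 and 0.720 TPM in old UBR4 mKO muscle (0.63 ± 0.21, limma adjusted p = 0.244). Rrm2 was at 0.663, 0.866, 1.18 and 0.921 TPM in WT and at 1.49, 1.99, 1.13 and 1.76 TPM in UBR4 mKO, and only the third UBR4 mKO mouse was below a WT mouse (0.74 ± 0.23, limma adjusted p = 0.186). Bub1b, a kinase of the spindle checkpoint, was at 0.161, 0.222, 0.0884 and 0.270 TPM in WT and at 0.268, 0.685, 0.380 and 0.289 TPM in UBR4 mKO (0.80 ± 0.27, limma adjusted p = 0.244). UBR4 mKO replicate 2 was the highest of its group for 28 of the 37 genes and for 21 of the 22 mitosis genes, the exception being Tpx2. The summed TPM of all 37 genes was 0.923 higher in UBR4 mKO than in WT with this mouse and 1.89 lower without it. No gene was called at 24 months when any 1 mouse was left out.

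With age, 6 of the 32 genes were called higher in 24-month than in 6-month WT muscle and none lower (18.8%, with 18.6% of all tested genes called higher, 1.08% lower and 19.6% in either direction). In 5 genes every old WT mouse was above every young WT mouse, and in none below (21.8% of all genes above, 1.81% below, 23.6% either). The median log2 difference was 0.05, below the 0.26 of all genes, and -0.16 after rescaling, beside 0.00. Rescaling left 1 of the 6 calls, Aurka (3.13%, with 4.26% of all genes higher, 4.28% lower and 8.54% in either direction).

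Aurka (chr2:172356190-172370535, minus strand) was at 2.38, 2.06, 2.12 and 2.08 TPM in young WT and at 5.84, 5.99, 6.01 and 5.31 TPM in old WT muscle. The old mice were tightly grouped at a mean 2.68 times that of the young mice. The log2 difference was 1.38 ± 0.20 (limma, adjusted p = 0.000319), and 1.12 after rescaling (adjusted p = 0.00618). In UBR4 mKO muscle Aurka was at 1.93, 1.76, 2.17 and 1.66 TPM at 6 months and at 5.52, 5.95, 4.73 and 2.42 TPM at 24 months. The fourth old UBR4 mKO mouse was only just above the young mice, and the log2 difference was 1.19 ± 0.20 (limma, adjusted p = 0.00165), or 1.25 after rescaling (adjusted p = 0.00265). Of the 10 alternative analyses, only the Kruskal-Wallis test with Dunn comparisons did not call Aurka with age, in either genotype. No other gene shares exon bases with Aurka in GENCODE M21, and no copy of its transcript was found.

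Tpx2, which binds and activates Aurora A on the spindle, was at 1.00, 0.673, 0.768 and 0.912 TPM in young WT and at 1.35, 1.75, 0.990 and 2.23 TPM in old WT. The third old mouse overlapped the young mice, and the log2 difference was 0.80 ± 0.22 (limma, adjusted p = 0.0194; after rescaling 0.55, adjusted p = 0.150). In UBR4 mKO it was at 0.841, 0.586, 0.562 and 0.649 TPM at 6 months and at 1.60, 1.37, 1.25 and 0.985 TPM at 24 months, without overlap (0.88 ± 0.22, limma adjusted p = 0.0210; after rescaling 0.92, adjusted p = 0.0173).

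Ube2c, the ubiquitin-conjugating enzyme of the anaphase-promoting complex, was at 0.846, 0.578, 0.933 and 0.536 TPM in young WT and at 0.954, 0.957, 1.80 and 2.48 TPM in old WT. The first pair of old mice were just above the young range and the others well above it (log2 difference 0.92 ± 0.27, limma adjusted p = 0.0281; after rescaling 0.68, adjusted p = 0.161). In UBR4 mKO it was at 1.07, 0.858, 0.994 and 0.790 TPM at 6 months and at 1.58, 2.75, 2.19 and 1.50 TPM at 24 months (1.00 ± 0.27, limma adjusted p = 0.0356; after rescaling 1.05, adjusted p = 0.0298). Ube2c shares 592 exon bases, 22.8% of its exon length, with Tnnc2 on the opposite strand, and Tnnc2, fast-fiber troponin C, averaged 14467 TPM. Whether reads were counted by strand is not stated in the sources used here, so reads of the shared bases may belong to either gene. Tnnc2 itself differed with age by 0.09 in WT and 0.13 in UBR4 mKO on the log2 scale (limma, adjusted p = 0.424 and 0.430).

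Rrm2 and Rrm1, the 2 subunits of ribonucleotide reductase, were both called higher with age in WT. For Rrm2, given by mouse above, the log2 difference was 0.91 ± 0.23 (limma, adjusted p = 0.0134; after rescaling 0.67, adjusted p = 0.0930), and old WT mice were all above young WT mice. Rrm1 was at 19.1, 17.4, 19.8 and 19.2 TPM in old WT, all above the young WT mice (0.44 ± 0.10, limma adjusted p = 0.0102; after rescaling 0.17, adjusted p = 0.177). Mcm2 was at 3.66, 3.39, 3.71 and 4.12 TPM in old WT, also above the young mice (0.40 ± 0.13, limma adjusted p = 0.0445; after rescaling 0.14, adjusted p = 0.472). The Mcm2 call was lost in 11 of the 16 fits that left out a mouse and in 6 of the 10 alternative analyses. The genes with the largest differences that were not called were Ccnb2 (-0.51 ± 0.39, adjusted p = 0.328), Aurkb, the kinase partner of survivin (-0.50 ± 0.42, adjusted p = 0.379), and Cdc6, which recruits the MCM helicase (-0.49 ± 0.22, adjusted p = 0.113). Without 6-month WT replicate 3, the differences were -0.20 for Ccnb2 and -0.22 for Aurkb. Without 24-month WT replicate 4, 3 genes were called, Rrm1, Rrm2 and Aurka.

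In UBR4 mKO muscle, 4 of the 32 genes were called higher at 24 than at 6 months (12.5%, with 2.46% of all tested genes) and 1 lower (3.13%, with 4.03%), where 6.49% of all genes were called in either direction. After rescaling 5 were called higher, Rrm1 being added, and 1 lower (5.2% and 5.05% of all genes, 10.2% in either direction). In 4 genes every old UBR4 mKO mouse was above every young one and in 1 below (4.33% and 8.72% of all genes, 13.1% in either direction). The comparison shares its groups with the genotype comparisons, as does that in WT. The 4 were Aurka, Ube2c, Tpx2 and Mcm2, which were also called with age in WT, Mcm2 there in a minority of the alternatives. In UBR4 mKO the Mcm2 call was lost in 7 of the 16 fits that left out a mouse. The median log2 difference of the 32 genes was -0.22, and -0.17 after rescaling, beside -0.05 and 0.00 over all genes. Mcm2 was at 3.65, 4.34, 2.91 and 3.01 TPM in old UBR4 mKO, above all young UBR4 mKO mice (0.49 ± 0.13, limma adjusted p = 0.0367; after rescaling 0.55, adjusted p = 0.00482). Rrm1, at 19.1, 17.1, 14.4 and 15.6 TPM, was not called (0.33 ± 0.10, limma adjusted p = 0.0712) and was called after rescaling (0.39, adjusted p = 0.00361).

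Kif11 was the only gene of the list called lower with age. It was at 0.190, 0.498, 0.0975 and 0.128 TPM in old UBR4 mKO, against 0.405 to 0.849 TPM in young UBR4 mKO muscle. The second old mouse lay within the young range and the other 3 within or near the WT range of 0.103 to 0.223 TPM over both ages. The log2 difference was -1.28 ± 0.29 (limma, adjusted p = 0.0132), and -1.22 after rescaling (adjusted p = 0.0133). A fit to only the groups compared and the Kruskal-Wallis test with Dunn comparisons did not call Kif11 here. In WT, Kif11 was at 0.143, 0.103, 0.147 and 0.139 TPM at 24 months (-0.22 ± 0.29, limma adjusted p = 0.593). The largest differences that were not called in UBR4 mKO were those of Plk1 (-0.90 ± 0.38, adjusted p = 0.177), Kif20a, a kinesin of cytokinesis (-0.75 ± 0.33, adjusted p = 0.200), and Ccne1, the cyclin of S-phase entry (-0.70 ± 0.28, adjusted p = 0.170). Kif20a shares 29.3% of its exon length with Cdc23 on the opposite strand. The number called was 2, Aurka and Kif11, without 24-month replicate 2 and without 6-month replicate 2 or 3, and 3 without 24-month replicate 1 and without 6-month replicate 1 or 4.

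Whether the genotype difference changed with age was tested directly, as the interaction of genotype and age. None of the 32 genes was called by limma, against 3.51% of all genes (0.104% higher, 3.41% lower), and 2 had an unadjusted p under 0.05, beside 27.4% of all genes (1.02% higher, 26.4% lower). The limma fit with mouse weights also called none, and the fit without 24-month UBR4 mKO replicate 2 called 1, Kif11. The interaction was -1.07 ± 0.41 for Kif11 (adjusted p = 0.126), -0.97 ± 0.53 for Plk1 (adjusted p = 0.230) and -0.82 ± 0.32 for Rrm2 (adjusted p = 0.127). After rescaling these were -0.83, -0.77 and -0.54, and none was called, with 1.4% of all genes called (0.623% higher, 0.782% lower). Calls at 6 months and their absence at 24 months thus do not show that the 2 ages differ.

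**Figure D3:**
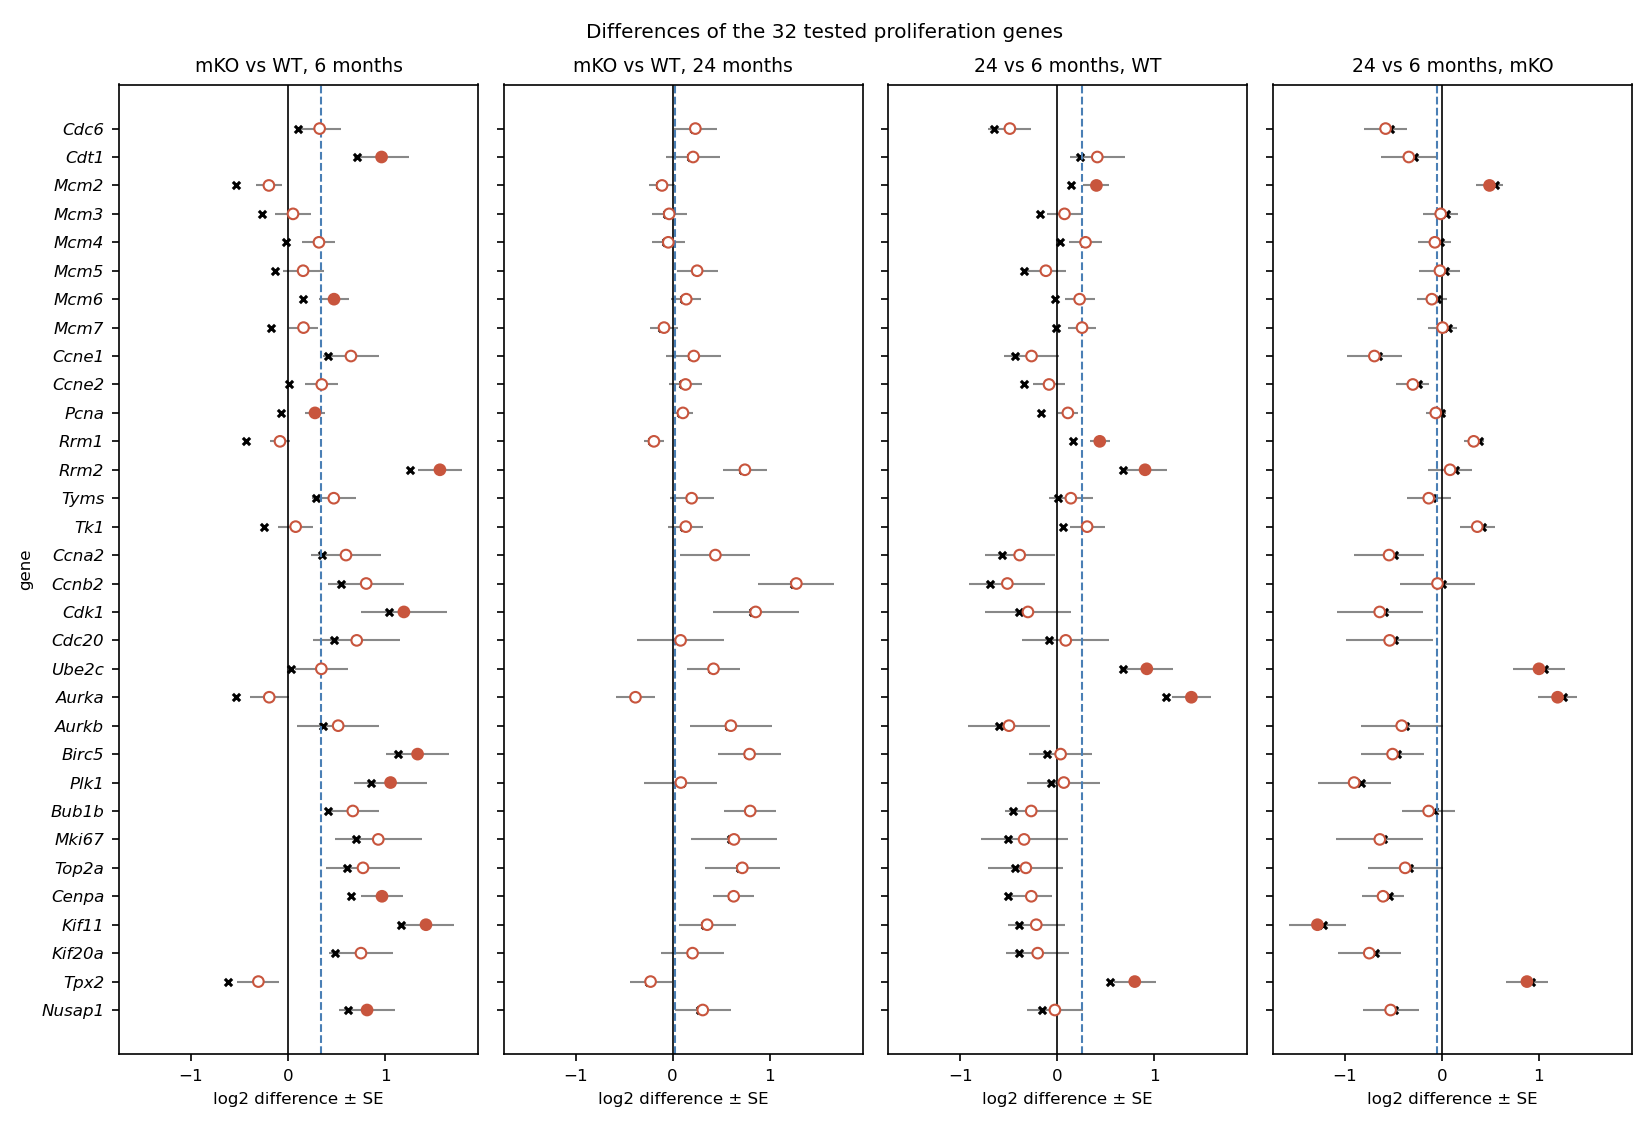
Log2 differences with their SE (horizontal axes, circles and bars) of the 32 tested proliferation genes (rows, in order of role) in the 2 genotype and the 2 age comparisons. Filled circles are genes called by limma, crosses are the rescaled values, the solid line is 0 and the dashed blue line is the median of all tested genes (0.34, 0.02, 0.26 and -0.05 from left to right). At 6 months the dashed line lies to the right of 0 and the crosses to the left of the circles.

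The 5 genes under the filter were not tested. Ccnb1, cyclin B1, averaged 0.0748 TPM in young WT, 0.122 TPM in young UBR4 mKO, 0.0181 TPM in old WT and 0.141 TPM in old UBR4 mKO, where replicate 2 was at 0.379 TPM. Hmmr, a spindle assembly factor, averaged 0.0244, 0.0787, 0.0148 and 0.0726 TPM in the same order. Cenpf, a kinetochore protein, averaged 0.0244, 0.0773, 0.00979 and 0.0336 TPM. The checkpoint kinases Bub1 and Ttk were at or below 0.120 and 0.0632 TPM in every mouse.

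Leaving out the leading mouse lowered the SD of the mitosis sum from 2.80 to 1.77 TPM in 6-month UBR4 mKO (replicate 1) and from 4.71 to 2.40 TPM in 24-month UBR4 mKO (replicate 2), and raised that of the S-phase sum from 2.75 to 3.27 TPM and from 4.11 to 4.76 TPM. Among WT mice, 6-month replicate 3 was the highest of its group for 22 of the 37 genes, whereas no single mouse led in 24-month WT, where the counts were 5, 9, 9 and 14. In 6-month UBR4 mKO, replicate 4 was the lowest of its group for 16 of the 22 mitosis genes.

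**Figure D4:**
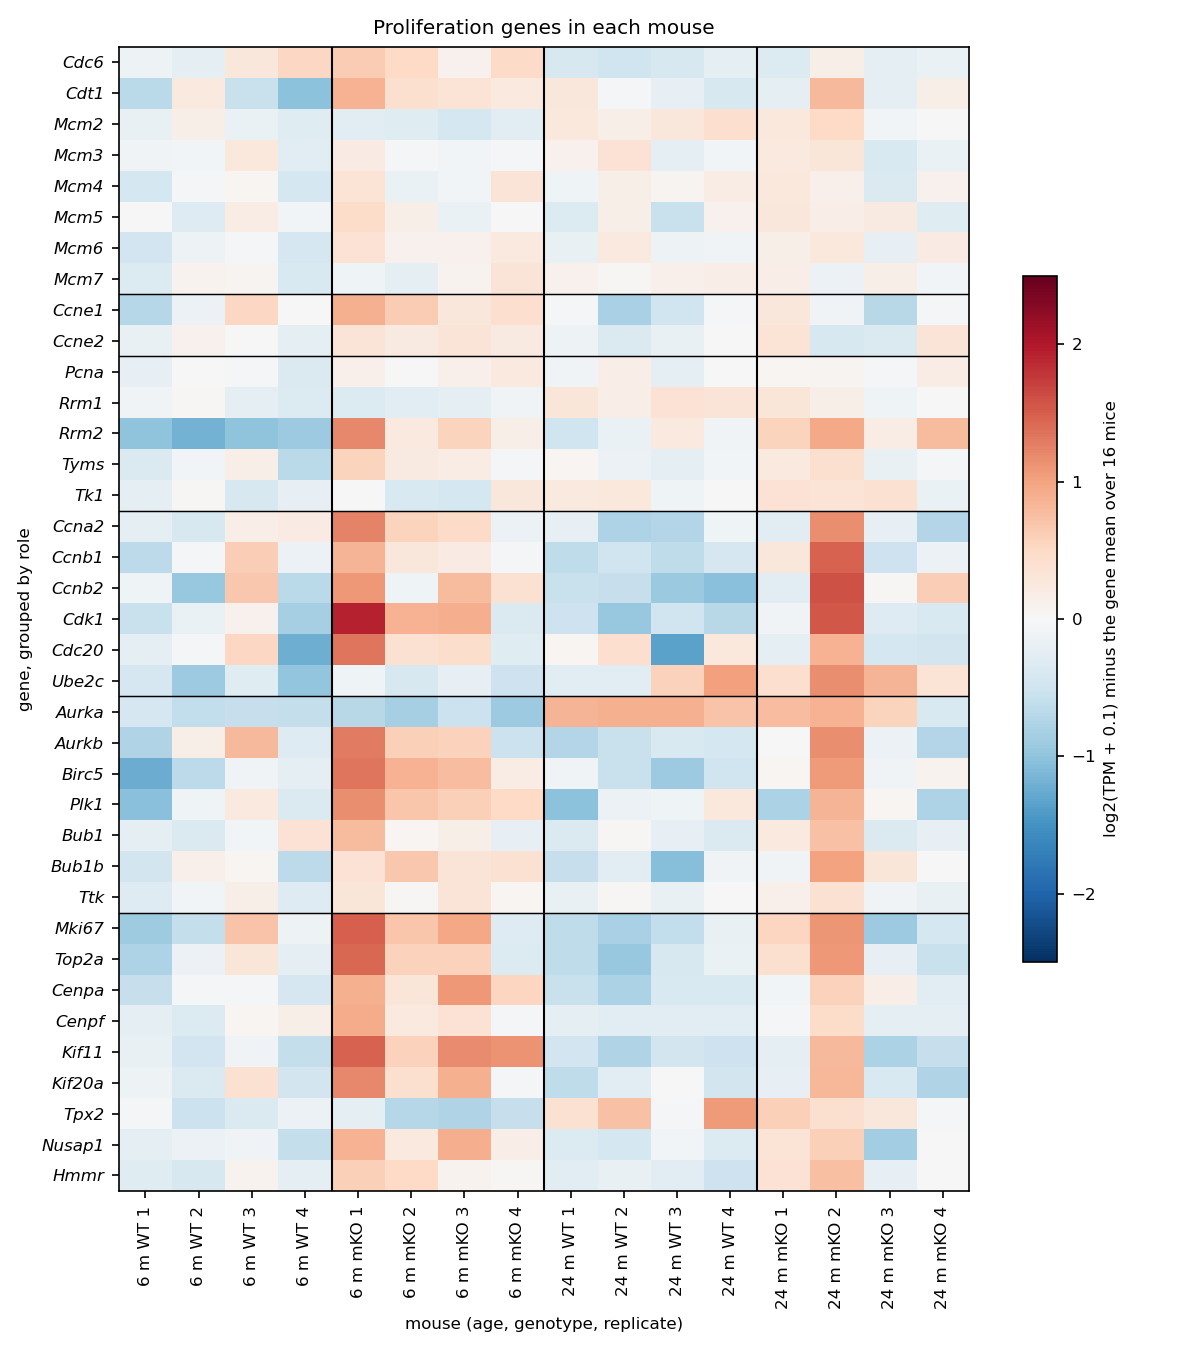
Log2(TPM + 0.1) minus the mean of each gene over the 16 mice (color scale) for the 37 proliferation genes (rows, with lines between role groups) in each mouse (columns). The mitosis genes are highest (red) in 6-month UBR4 mKO replicate 1 and 24-month UBR4 mKO replicate 2, and Aurka is red in all 24-month mice except UBR4 mKO replicate 4.

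Macrophage and monocyte markers were highest in the same mice. The summed TPM of 10 macrophage and monocyte markers was 21.4 to 32.7 in young WT, 68.3 to 244 in young UBR4 mKO, 37.3 to 84.6 in old WT and 95.3 to 378 in old UBR4 mKO muscle. The highest values, 244 and 378 TPM, were those of 6-month UBR4 mKO replicate 1 and 24-month UBR4 mKO replicate 2, the same mice that led the mitosis genes. At 6 months 9 of the 10 markers were called higher in UBR4 mKO (37.7% of all tested genes were), with a median log2 difference of 1.72. After rescaling 6 of them were called higher (6.8% of all genes were). None was called at 24 months, where the median was 0.99. Lyz2, lysozyme of phagocytes, averaged 14.9, 69.7, 40.4 and 115 TPM in young WT, young UBR4 mKO, old WT and old UBR4 mKO. The part of these cells in the mitosis gene values was not tested.

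**Figure D5:**
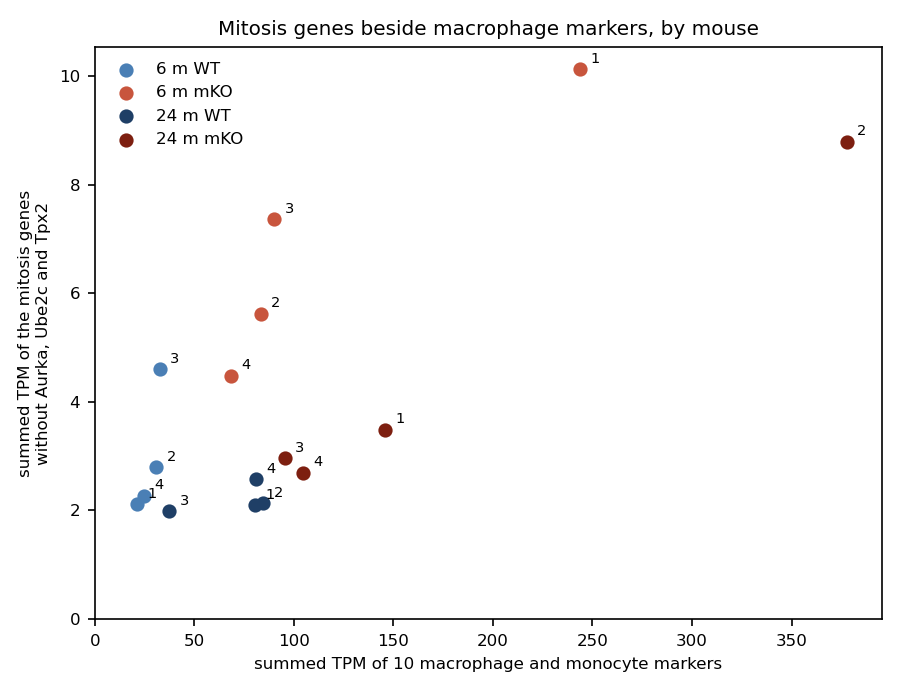
Summed TPM of the 19 mitosis genes without Aurka, Ube2c and Tpx2 (vertical axis) beside the summed TPM of 10 macrophage and monocyte markers (horizontal axis) for each of the 16 mice, colored by group and numbered by replicate. The mice at 244 and 378 TPM of macrophage markers are at 10.1 and 8.79 TPM of mitosis genes.

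Of 10 satellite cell and myoblast markers, 5 were called higher in UBR4 mKO at 6 months, beside 37.7% of all tested genes: Pax7, Myf5, Calcr, Myog and Tmem8c (Mymk), the fusion protein myomaker. Tmem8c averaged 0.0889 TPM in WT and 2.79 TPM in UBR4 mKO (log2 difference 3.83 ± 0.42, limma adjusted p = 2.62e-05), and Myog, or myogenin, 2.60 and 11.5 TPM (2.16 ± 0.29, adjusted p = 0.000122). After rescaling 3 were called higher and 1 lower (6.8% and 7.71% of all genes were). None was called between genotypes at 24 months, and 3 of the 10 were higher with age in WT (18.6% of all genes were). With age in UBR4 mKO, 4 were called lower (Pax7, Myf5, Calcr and Tmem8c) and 1 higher (Myod1), beside 4.03% and 2.46% of all genes. The interaction was called lower for 2, Myog and Tmem8c, under both scalings (3.41% of all genes, and 0.782% after rescaling).

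For the other marker lists the counts called at 6 months are given beside the 37.7% of all tested genes called higher (6.8% after rescaling). They were 5 of 10 fibroblast and fibro-adipogenic markers higher in UBR4 mKO (1 after rescaling), 7 of 10 endothelial markers (none after rescaling), 5 of 10 fiber markers (1 after rescaling), 1 of the 6 tested lymphocyte markers (Ptprc), 1 of the 5 tested neutrophil and bone marrow markers (Retnlg), 1 of the 6 tested erythroid markers (Tfrc) and none of 10 Schwann cell markers, of which 3 were called lower after rescaling (7.71% of all genes were). No single call, such as that of Ptprc or Tfrc, was tied to the cell type of its list. At 24 months the only call between genotypes in these lists was Ncmap, a Schwann cell marker, which was higher in UBR4 mKO. With age in WT, 4 of the 5 neutrophil markers were higher (3 after rescaling; 18.6% and 4.26% of all genes were), among them S100a8 (1.04 to 4.15 TPM, log2 difference 1.88 ± 0.43, limma adjusted p = 0.00859). Also with age in WT, 7 of 10 fiber markers were called higher and 2 lower (1 and 2 after rescaling), 2 of 10 fibroblast markers lower under both scalings, and 5 of 10 endothelial markers lower after rescaling and none before (1.08% of all genes lower, and 4.28% after rescaling). With age in UBR4 mKO, 5 of 10 endothelial markers (6 after rescaling) and 4 of 10 fibroblast markers (4 after rescaling) were called lower, and 3 of 10 fiber markers in each direction (1 higher and 2 lower after rescaling), beside 4.03% of all genes lower and 2.46% higher (5.05% and 5.2% after rescaling). The fiber markers summed to between 88689 and 122615 TPM in every mouse, far above those of every other list.

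Genes of the same pathways outside the list were counted in the same way. At 6 months both counts before rescaling were below the 37.7% of all tested genes called higher, so those counts do not set these genes apart. After rescaling 6.8% of all genes were called higher and 7.71% lower. Of 37 tested other replication genes, 6 were called higher in 6-month UBR4 mKO and none lower, and none higher and 5 lower after rescaling. The 5 were a larger share than the 7.71% of all genes. Examples are Pola2, a subunit of DNA polymerase alpha (4.80 to 7.10 TPM, log2 difference 0.56 ± 0.13, limma adjusted p = 0.00530), and Pole2 (0.317 to 0.574 TPM, 0.68 ± 0.22, adjusted p = 0.0237). Of 32 tested other mitosis genes, 9 were called higher and none lower, and 1 in each direction after rescaling. Smc4, a condensin subunit, had the lowest adjusted p of these (1.66 to 3.12 TPM, 0.88 ± 0.17, adjusted p = 0.00180; after rescaling 0.54, adjusted p = 0.0124), and it was lower again in old than in young UBR4 mKO (-0.89 ± 0.17, adjusted p = 0.00524). Neither list held a call between genotypes at 24 months.

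The replication-dependent histones were listed by name, as all symbols that start with Hist1h, Hist2h or Hist3h. Of 33 tested, 9 were called higher in 6-month UBR4 mKO (3 higher and 1 lower after rescaling) and none at 24 months. The 9 are a smaller share than the 37.7% of all tested genes, and after rescaling all genes stood at 6.8% higher and 7.71% lower. Hist1h1c, the linker histone H1.2, averaged 88.3 TPM in young WT and 170 TPM in young UBR4 mKO (0.94 ± 0.09, limma adjusted p = 1.34e-05), and Hist1h1d, the linker histone H1.3, 0.367 and 1.12 TPM (1.30 ± 0.27, adjusted p = 0.00234). Histone genes are near-identical copies, so reads may have been split between them. Whether the histone values come from cells in S phase was not tested. With age in WT 4 histone genes were called higher and 2 lower (1 and 2 after rescaling), beside 18.6% and 1.08% of all genes (4.26% and 4.28% after rescaling), and Hist1h2al fell by 5.06 on the log2 scale (9.85 to 0.426 TPM, limma adjusted p = 3.10e-05).

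Genes that set the pace of G1, the phase before S phase, were a further list. Of the 13 tested G1 cyclins, their kinases and CDK inhibitors, 10 were called higher in 6-month UBR4 mKO and none lower (5 after rescaling), beside 37.7% of all tested genes (6.8% after rescaling). These include the inhibitors Cdkn2a, the locus of p16 and ARF (0.00885 to 0.340 TPM, log2 difference 1.89 ± 0.38, limma adjusted p = 0.00187; after rescaling 1.78), and Cdkn1c, or p57 (7.73 to 18.5 TPM, 1.17 ± 0.19, adjusted p = 0.000561; after rescaling 0.82). Cdk6, a kinase partner of the D cyclins, was higher by 0.98 ± 0.24 (0.279 to 0.630 TPM, adjusted p = 0.00618). With age in WT, 4 were called higher (2 after rescaling), beside 18.6% of all genes (4.26% after rescaling), with Cdkn1a, or p21, at 1.42 ± 0.30 (adjusted p = 0.00511) and Cdkn2a at 1.42 ± 0.38 (adjusted p = 0.0175). Between genotypes at 24 months none was called before and 1 after rescaling.

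Of the 16 tested cell cycle transcription factors and DREAM complex genes, 3 were called higher in 6-month UBR4 mKO and none lower, below the 37.7% of all tested genes. After rescaling 2 were called higher and 3 lower, both larger shares than the 6.8% and 7.71% of all genes. E2f2, an activator of S-phase genes, averaged 0.170 TPM in young WT, 0.639 TPM in young UBR4 mKO, 1.59 TPM in old WT and 0.485 TPM in old UBR4 mKO. It was higher in UBR4 mKO at 6 months (1.46 ± 0.22, limma adjusted p = 0.000341) and lower at 24 months (-1.51 ± 0.22, adjusted p = 0.00636), with an interaction of -2.97 ± 0.32 (adjusted p = 0.000191). Rb1, the pocket protein that restrains E2F, averaged 4.29, 8.09, 9.92 and 8.26 TPM in the same order, and its interaction was -1.18 ± 0.24 (adjusted p = 0.0151). E2f2 was the only gene of these lists called lower in UBR4 mKO at 24 months, and both interactions were also called after rescaling (adjusted p = 0.00130 and 0.0461).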

How the data were processed

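RNA of whole tibialis anterior muscle was sequenced from 16 mice, separate animals per the study's methods, and the groups were taken from the labels. After trimming, the authors mapped the read pairs to mm10 (named in the submitters' processing notes) and deposited TPM per gene, 1 column a sample, with each sample summing to 1000000. TPM keeps no read depth, so the precision of single values is unknown. The labels name a stranded library kit and the methods an unstranded one, so the use of strand in counting was not settled here. A Kruskal-Wallis test with Dunn comparisons, the kind the study's methods name for fewer replicates a group, was run as an alternative on all 4 mice of each group with adjustment over genes.

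From the deposited TPM, genes with a mean of at least 0.1 TPM were fitted with limma 3.58.1 in R 4.3.3 on log2(TPM + 0.1), all 4 groups together with no covariate, with Benjamini-Hochberg adjustment over all genes tested. The code was tested on simulated data. Alternatives were other pseudocounts (0.01 and 1), filters, rescalings, mouse weights, a replicate block, only the groups compared, and leaving out each mouse. Overlaps were taken from GENCODE M21 and copies by aligning transcripts with minimap2 2.31. Python 3.11.15 and matplotlib 3.10.9 were used for summaries and plots.

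The proliferation genes, the other gene lists and the marker lists were chosen with earlier results of these data known. Values by mouse are given for genes called in any comparison and for the 3 with the highest means, statistics for each called gene and the 3 largest uncalled differences of each comparison, and up to 3 called genes of each further list. Genes named beyond this, to spell out a small count or a background, were chosen after their values were seen. Leaving out the UBR4 mKO mouse with most macrophage markers and leaving single genes out of the mitosis sum were also chosen then.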

Additional observations from a re-analysis of the deposited data

Results flagged for a closer look

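In 104 groups of 4 mice checked, over the proliferation genes named with statistics and their sums over all, S-phase and mitosis genes, 2 values lay farther from their group than Dixon's 95% limit for groups of that size allows, and about 5.2 would be expected by chance, or 1 in 20. Both belong to 24-month UBR4 mKO replicate 2. Birc5 was at 0.457 TPM in this mouse and between 0.151 and 0.181 TPM in the other 3. Cdk1 was at 0.541 TPM in it, against 0.0689 to 0.106 TPM elsewhere in its group. The same mouse had the highest macrophage marker sum of all 16, at 378 TPM, and its Ubr4 level was the highest of its group, at 14.6 TPM; the part of either in these values was not tested.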

How the results depend on the processing

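Between genotypes at 6 months, the number of proliferation genes called was 10, and it was 3 with a minimum mean of 1 TPM (which leaves fewer genes to test), 5 after median-of-ratios rescaling, 6 after rescaling without mitochondrial genes, 17 with mouse weights and 3 with the Kruskal-Wallis and Dunn tests. Over all genes the 5601 calls became 2098, 1927 and 2266 under the rescalings and the Dunn test. Of the calls after rescaling without mitochondrial genes, 1277 were higher and 650 lower. The numbers over all genes with the 1 TPM minimum and with mouse weights are not given here, so those 3 and 17 proliferation genes have no background beside them. Pcna at 6 months turned to -0.0731 on the log2 scale after median-of-ratios rescaling. At 24 months mouse weights called 1 proliferation gene. The 86 calls over all genes became 43 with no filter, 9 with only the groups compared, 259 with mouse weights and 0 with the Dunn test. With age in WT, 6 proliferation genes became 1 under either rescaling and 0 with the Dunn test, and 2840 genes in all became 1234, 1210, 6571 with mouse weights and 0. With age in UBR4 mKO, 5 became 3 with only the groups compared and 0 with the Dunn test, and 938 genes in all became 1481 after median-of-ratios rescaling, 593, 1820 with mouse weights and 0. The interaction was called for 508 genes, and for 299 with no filter, 203 and 223 after the rescalings and 2382 with mouse weights. The causes were not tested, apart from the scaling itself, which removes a shift of 0.34 (log2) at 6 months.

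The summed TPM of the 37 genes differed by 8.37 between genotypes at 6 months, and by -3.67 and -0.39 under the rescalings. With age in WT it differed by 12.8, by 3.41 after median-of-ratios rescaling and by 7.92 without Rrm1, and with age in UBR4 mKO by 5.40 and by 12.2 after rescaling without mitochondrial genes. Leaving out 1 mouse gave 4 to 13 called proliferation genes at 6 months, none at 24 months, 3 to 7 with age in WT, 2 to 5 with age in UBR4 mKO and 0 to 1 for the interaction. Over all genes it gave 3074 to 7192, 27 to 94, 1083 to 5141, 547 to 1040 and 204 to 2274 calls in the same order. The differences of the sums were then 6.46 to 9.92, -1.89 to 3.22, 10.9 to 14.2 and 2.59 to 7.71 TPM.

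Replicate numbers are shared between groups, but same-numbered mice did not deviate together (correlations of -0.19 to 0.14), so they do not pair the mice. With a replicate block, 8, 0, 5, 3 and 0 proliferation genes and 4928, 58, 2177, 765 and 286 genes in all were called in the 2 genotype comparisons, the age comparisons in WT and UBR4 mKO, and the interaction. Of single proliferation genes, Rrm2 and Birc5 at 6 months were called under every alternative run for them, and Aurka with age and Kif11 at 6 months under all but the Dunn test.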
